A study of Mus musculus with 4 samples.

Results

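The MHC class II genes and their transactivator gene Ciita were examined as 10 genes: H2-Aa, H2-Ab1 and H2-Eb1, H2-Oa and H2-Ob, H2-DMa, H2-DMb1 and H2-DMb2, Cd74, and Ciita. Chromatin accessibility at them was read from ATAC-seq peak lists. For each gene, every peak that overlapped the RefSeq gene body or the 10 kb on either side of it was taken, and peaks of different libraries overlapping by 1 bp or more were joined into 1 region. This gave 27 of the 45299 regions of the series, lying at 9 of the 10 genes. No region lay within 10 kb of Ciita. Of the 27, 3 lay within 10 kb of more than 1 of these genes and were counted once.

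ATAC-seq marks open DNA by the insertion of sequencing adapters with the Tn5 transposase. EL4 cells, which derive from a mouse T cell lymphoma, were injected into wild-type mice (WT, n = 2 libraries) or mice lacking Sphk2, the gene of sphingosine kinase 2 (Sphk2 KO, n = 2 libraries). On day 14, Gr1+CD11b+ cells of the ascitic fluid, called myeloid-derived suppressor cells (MDSCs), were sorted, and each library was made from 20000 of them with 40% of the recommended Tn5. Strain, age, sex, the kind of Sphk2 allele and the number of mice behind a library are not given in the sources used here, so the replicate spread described below is that between libraries. The gene of CD11b, Itgam, had a peak at its start in all 4 libraries (−log10 q 20.1 and 24.4 in WT, 13.8 and 19.6 in Sphk2 KO). The starts of Ly6g, a gene of the Gr1 epitope, and of Ly6c1 had none, and that of Ly6c2 had a peak in 3 libraries and none in Sphk2 KO replicate 1.

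MHC class II molecules are cell-surface heterodimers that show peptides from endocytosed proteins to CD4+ T cells. H2-Aa with H2-Ab1 forms the I-A molecule, and H2-Eb1 encodes the β chain of I-E. The invariant chain Cd74 escorts new dimers to endosomes, where H2-DM (H2-DMa with H2-DMb1 or H2-DMb2) exchanges the invariant chain remnant for peptide and H2-O (H2-Oa with H2-Ob) restrains H2-DM. Their promoters share a module of W/S, X and Y boxes. The RFX complex binds the X box, NF-Y binds the Y box, and the non-DNA-binding co-activator CIITA is recruited by the assembled factors and sets class II transcription. Dendritic cells, B cells and macrophages express these genes, and neutrophils and immature granulocytic cells usually do so little.

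The promoter windows below, from 250 bases before to 50 bases after a start, are those of the class II genes with a listed start and a peak within 1 kb of it in at least 1 library, outside the part of H2-DMa that overlaps the gene Brd2. They are shown because they hold matches to X box or RFX and Y box cores near the called or uncalled start peaks. Capitals mark the inverted Y box core, ATTGG, and the motif paired with it upstream: the X box core in H2-Oa and H2-Ob, and the RFX core GCAAC, a form chosen after the sequences had been seen, in H2-Aa and H2-Eb1. The sequences are from RefSeq (GRCm38.p6, the assembly of mm10): H2-Oa from chr17:34092129-34092428 (plus strand), H2-Ob from chr17:34238655-34238954 (plus strand), H2-Aa from chr17:34287774-34288073 (minus strand) and H2-Eb1 from chr17:34305617-34305916 (plus strand).

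H2-Oa: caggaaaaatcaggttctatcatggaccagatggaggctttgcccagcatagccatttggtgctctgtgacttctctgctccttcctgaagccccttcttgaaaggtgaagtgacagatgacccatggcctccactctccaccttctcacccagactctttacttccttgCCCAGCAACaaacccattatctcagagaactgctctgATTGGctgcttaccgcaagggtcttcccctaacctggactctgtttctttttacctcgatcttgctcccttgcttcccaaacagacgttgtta
H2-Ob: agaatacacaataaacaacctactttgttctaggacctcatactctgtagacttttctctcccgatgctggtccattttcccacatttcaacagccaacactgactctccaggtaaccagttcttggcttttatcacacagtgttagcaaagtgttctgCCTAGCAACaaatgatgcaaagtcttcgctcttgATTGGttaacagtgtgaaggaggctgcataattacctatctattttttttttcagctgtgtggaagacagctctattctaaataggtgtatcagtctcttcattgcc
H2-Aa: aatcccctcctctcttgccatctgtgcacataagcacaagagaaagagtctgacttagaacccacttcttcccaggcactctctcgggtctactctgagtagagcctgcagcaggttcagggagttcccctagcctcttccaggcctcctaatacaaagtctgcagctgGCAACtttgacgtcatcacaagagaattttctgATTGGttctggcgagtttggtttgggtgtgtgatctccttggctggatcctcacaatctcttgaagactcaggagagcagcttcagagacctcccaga
H2-Eb1: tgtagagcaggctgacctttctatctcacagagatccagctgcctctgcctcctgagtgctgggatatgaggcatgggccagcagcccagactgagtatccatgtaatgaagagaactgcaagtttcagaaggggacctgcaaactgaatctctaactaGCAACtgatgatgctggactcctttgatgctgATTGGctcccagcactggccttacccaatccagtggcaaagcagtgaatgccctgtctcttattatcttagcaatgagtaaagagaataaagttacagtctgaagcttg

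Motifs were searched on both strands. The Y box core CCAAT, which reads ATTGG when inverted, was present in 37.4% of all 32851 promoter windows of this length. The X box core was written as CCNNGNNAC (47.4% of windows). The RFX core was present in 35.2% of windows, and in H2-Oa and H2-Ob it overlaps the first. An X box core with an inverted Y box core 20 to 35 bases after it stood in the windows of H2-Oa, H2-Ob and H2-DMb1, compared with 0.819% of all windows. With the RFX core such a pair stood in H2-Oa, H2-Ob, H2-Aa and H2-Eb1, compared with 0.794% of all windows. Of the 7 members with a window, 5 held a pair of either form (1.49% of all windows), and the listed windows of H2-DMa and H2-DMb2 held none. H2-Aa and H2-Eb1 counted only through the RFX core, which was chosen after these sequences had been seen. The count of 5 is therefore no test of enrichment. The Y box core began 43 bases before the start in H2-Oa, 57 in H2-Ob, 48 in H2-Aa and 59 in H2-Eb1. These letter matches describe the sequence and measure no binding.

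Regions at the class II genes were called in every library more often than regions of the whole series. Of the 27 regions, 15 (55.6%) were called in all 4 libraries, compared with 37.5% of all regions, and 6 (22.2%) in 1 library, compared with 41.9%. WT replicates 1 and 2 each had 23 (85.2%), against 68% and 69.4% of all regions. Sphk2 KO replicate 1 had 16 (59.3%, against 44.7%) and Sphk2 KO replicate 2 had 19 (70.4%, against 60.1%). Both Sphk2 KO libraries thus had fewer regions at these genes than both WT libraries, as they had over the whole genome, and their lists rested on fewer retained fragments (25877428 and 27686223, against 33859480 and 34443062 in WT). When every list was reduced to its 20759 best peaks, the length of the shortest, the order did not hold: 15 regions were called in each WT library and 16 in each Sphk2 KO library.

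A peak's −log10 q is the score that the caller gave it against the local background of its own library, and the lowest listed value was 1.30. It depends on depth, so levels were compared within a library, or as ranks among the 16973 regions that all libraries called, where each library ranks the same regions. Over the 15 shared regions at the class II genes, the median −log10 q was 21.5 and 28.2 in WT against 17.1 and 29.3 in Sphk2 KO. Over all shared regions it was higher in each library, at 34.0 and 39.5 in WT against 21.6 and 43.8 in Sphk2 KO. Region ranks at the class II genes spread widely. The gap between the WT replicates ranged from 3 to 3625 ranks over the 15 shared regions (median 779), and that between the Sphk2 KO replicates from 1 to 3723 (median 615). The difference between the genotype means had a median size of 806.5 ranks, close to the gap within a genotype. With 2 libraries against 2 the smallest exact permutation p is 0.333, so no p is given for any region.

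**Figure D1:**
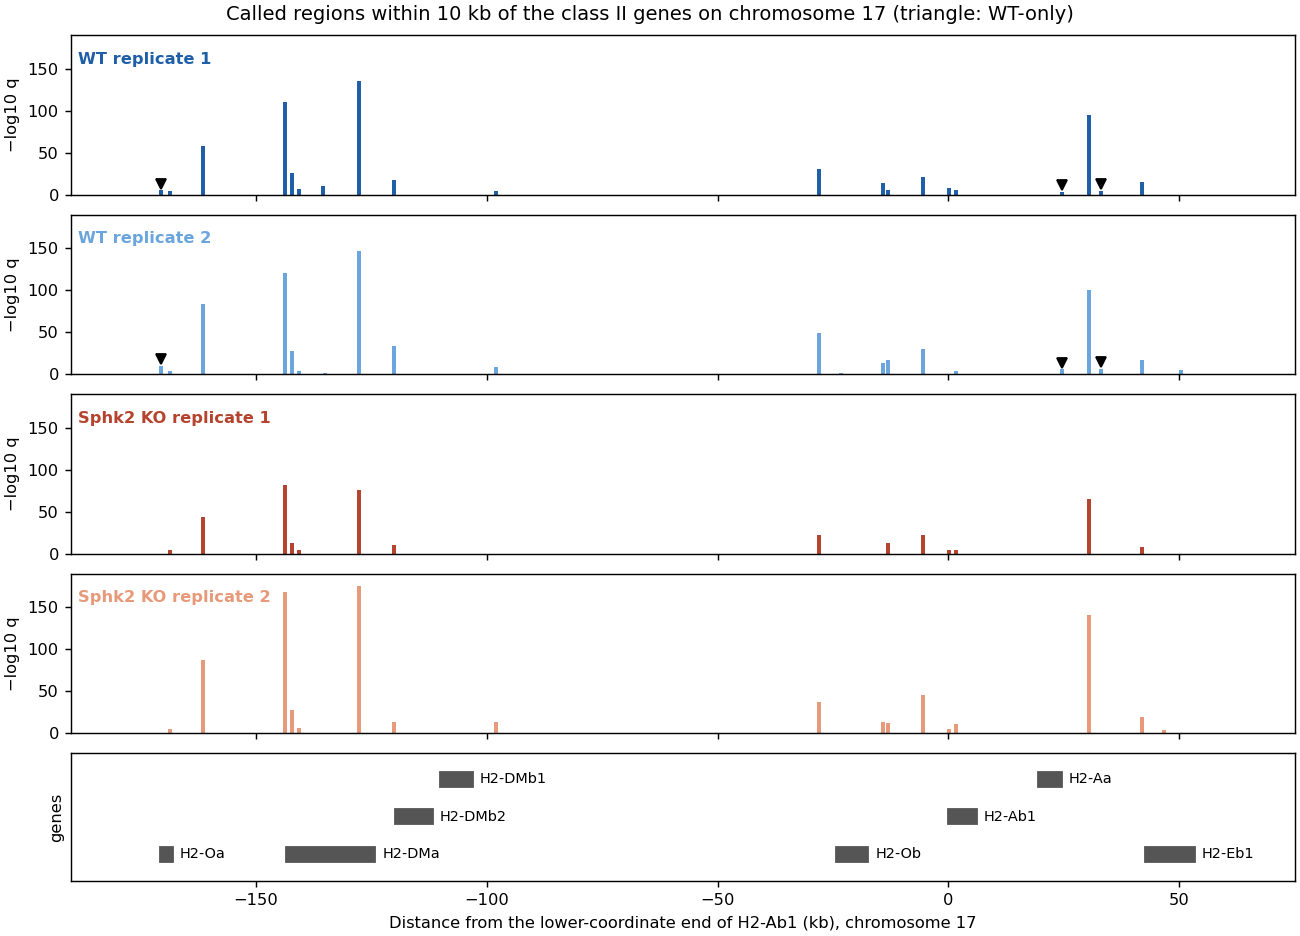
Peaks at the 8 class II genes on chromosome 17. The horizontal axis is the distance in kb from the lower-coordinate end of H2-Ab1, bars give the authors' −log10 q (vertical axis, from 0) of each region at its mean summit in each library, boxes show gene bodies and triangles mark regions called in both WT libraries but no Sphk2 KO library. The tallest bars lie inside or beside H2-DMa, beyond H2-Oa and between H2-Aa and H2-Eb1 in every library.

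Ciita had no called peak in any library. Its body spans 10480014 to 10531064 on chromosome 16, 51.1 kb, and the window searched was 71.1 kb long. Peak numbers ran without a gap in all 4 lists, so no row had been dropped from them. The nearest region below lay 67.7 kb from the gene, inside or next to Nubp1. It was called in all 4 libraries, with a −log10 q of 26.4 and 26.5 in WT against 12.7 and 34.6 in Sphk2 KO. The nearest region above lay 11.7 kb away, by Dexi, with 83.5 and 69.7 in WT against 43.5 and 89.7 in Sphk2 KO. Calls were thus made on both sides at these distances, and the Ciita body lay in a stretch without a call. Among protein-coding genes, 30.5% likewise had no region within 10 kb in any library, and the median gene had 1. Ciita uses alternative promoters in different cell types, and all of its RefSeq transcripts lie inside the stretch searched. A locus without a call may still be open below the caller's threshold.

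The factors around Ciita showed the opposite picture. All 7 genes of the class II transcription factors had a start peak, a peak within 1 kb of a listed start or, where no start is listed, of either gene end, in all 4 libraries. These genes are Rfx5, Rfxap and Rfxank of the RFX complex, Creb1, which binds the X2 box, and Nfya, Nfyb and Nfyc of NF-Y. Their values ran from 49.3 to 274. All 8 genes of the interferon gamma route to Ciita examined here had one too, with values from 23.0 to 196. That list holds the receptor chains Ifngr1 and Ifngr2, the kinases Jak1 and Jak2, the factors Irf1, Irf2 and Usf1, and Prdm1, which represses Ciita. No gene of either list was called in a single genotype. Over all protein-coding genes, 42.7% had a start peak in all 4 libraries.

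Peaks at the starts of the class II genes themselves were fewer and weaker than at the genes of both lists above. Their share was not below that of all protein-coding genes in WT and was below it in Sphk2 KO. WT replicates 1 and 2 had a start peak at 6 and 5 of the 10 genes, against 48.9% and 49.9% of protein-coding genes. Sphk2 KO replicates 1 and 2 each had one at 3 of 10, against 43.5% and 48.2%. H2-Eb1 and H2-DMa had one in all 4 libraries. H2-Oa and H2-Aa had one in both WT libraries but no Sphk2 KO library, a pattern of 1.3% of protein-coding genes. The reverse pattern was found at no member and at 0.0868% of protein-coding genes. H2-Ab1 lacked one in WT replicate 2 alone, Cd74 had one in WT replicate 1 alone and H2-Ob in WT replicate 2 alone. H2-DMb1, H2-DMb2 and Ciita had none. At H2-DMb2 all 4 libraries had a peak at the upstream end of the RefSeq body, more than 1 kb from the listed start. The strongest region at a listed start was that of H2-Eb1, at 15.7 and 16.8 in WT against 7.48 and 19.5 in Sphk2 KO. Over protein-coding genes with a start region the median was 46.8 and 52.0 in WT against 34.5 and 63.0 in Sphk2 KO, so the H2-Eb1 value was below that median in every library. With equal lists of best peaks the start counts of these genes were 3 and 2 in WT against 3 and 2 in Sphk2 KO. With either end of every gene used, they were 7 and 6 in WT against 5 in each Sphk2 KO library. The share of all genes is not given for either setting.

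**Figure D2:**
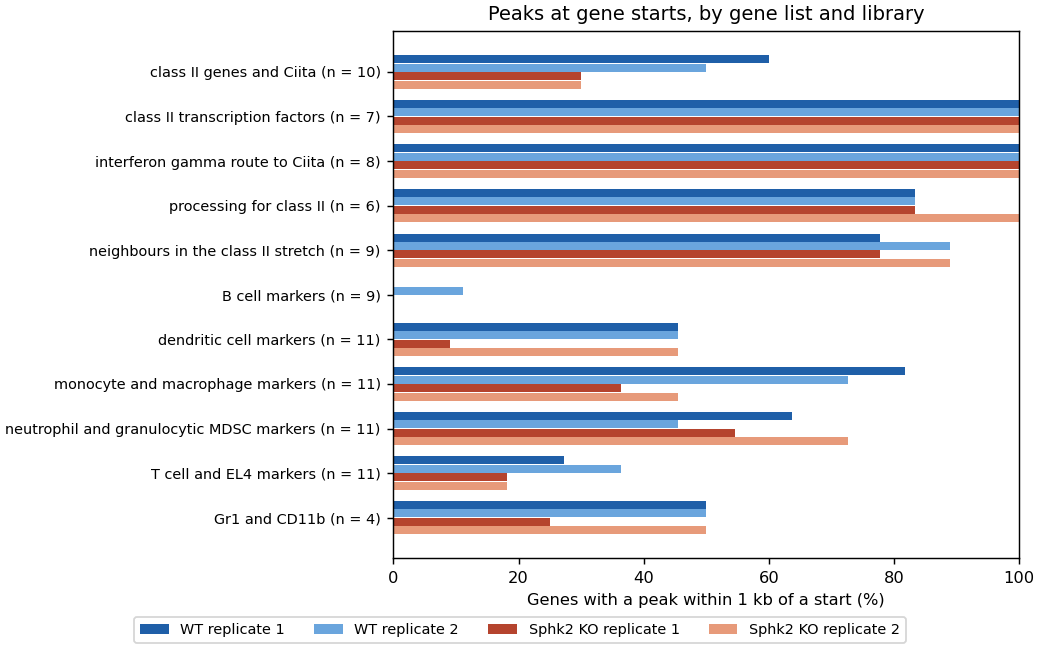
Share of genes with a peak within 1 kb of a start (horizontal axis, percent) for the class II genes with Ciita and for 10 other gene lists, with 1 bar per library. The class II transcription factors and the interferon gamma route reach 100 in every library, while the class II genes with Ciita stand at 60 and 50 in WT and 30 in both Sphk2 KO libraries.

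H2-Aa and H2-Ab1, the chains of I-A, differed from each other at their starts. The H2-Aa region at 34287651 to 34287987 (chromosome 17) had its summit 98 bp before the start and covered 214 of the 300 bases printed above, the capitals among them. It was called in WT only, weakly, at −log10 q 3.55 and 5.79 and a fold enrichment over local background of 3.39 and 3.86. It ranked 24981 of 31507 peaks in WT replicate 1 and 22402 of 31843 in WT replicate 2, both beyond the 20759 peaks of the shortest list. The H2-Ab1 region at 34263120 to 34263727, at the lower-coordinate end of the gene, was called in WT replicate 1 (7.88) and in both Sphk2 KO libraries (4.73 and 4.82). It was not called in WT replicate 2, the deepest library. The start peaks of the I-A chains therefore followed different patterns over the same 4 libraries.

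Stronger regions flanked both genes. At 34293123 to 34294199, with its summit 5.91 kb upstream of the H2-Aa start on the side of H2-Eb1, a region outside any gene had 95.6 and 101 in WT against 64.8 and 140 in Sphk2 KO. Its fold enrichment was 10.8 and 9.78 in WT against 9.58 and 11.3 in Sphk2 KO. Among shared regions it ranked 2417 and 2647 in WT against 2418 and 1988 in Sphk2 KO, so the genotypes overlapped. The region ranked within the first 2647 of the 16973 shared regions in each library, while the H2-Aa start beside it was weak or not called. A smaller region further along, 34296116 to 34296382, 8.42 kb upstream of H2-Aa and 9.63 kb upstream of H2-Eb1, was called in WT only (4.46 and 6.21).

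Near H2-Ab1 the shared regions ranked higher in Sphk2 KO. The region at 34257439 to 34258322, with its summit 5.40 kb beyond the lower-coordinate end, had 21.5 and 29.8 in WT against 22.7 and 45.2 in Sphk2 KO. Its rank among shared regions was 11322 and 10280 in WT against 8173 and 8276 in Sphk2 KO, and the genotypes did not overlap. The replicates were 1042 ranks apart in WT and 103 in Sphk2 KO, both less than the difference of 2576.5 ranks between genotype means. Inside H2-Ab1, the region at 34264639 to 34265312 was weaker, at 5.51 and 4.37 in WT against 4.55 and 10.9 in Sphk2 KO. Its ranks of 16386 and 16767 in WT against 15822 and 15446 in Sphk2 KO did not overlap either. With equal lists of best peaks it was called in both Sphk2 KO libraries but no WT library.

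At the start of H2-Eb1 the genotypes overlapped. The start region, 34304786 to 34306364, spanned the whole window printed above. The best summits of the 4 libraries lay within 4 bp, at 34304920 to 34304924, before the start at 34305867. The mean summit over all of its peaks, with 2 peaks in WT replicate 1, lay 767 bp before the start. The values given above put the region at ranks 13054 and 13568 in WT against 14062 and 13133 in Sphk2 KO. The region 9.63 kb upstream, described with H2-Aa, was called in WT only. Inside the gene, a region 4.02 kb past the start was called in Sphk2 KO replicate 2 alone (3.41) and one 7.76 kb past it in WT replicate 2 alone (5.54).

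Cd74, on chromosome 18 from 60803849 to 60812652, had its accessible regions inside the gene body. The first, at 60805061 to 60806717, scored a −log10 q of 10.6 and 26.1 in WT against 17.1 and 29.3 in Sphk2 KO. It ranked 14771 and 11146 among shared regions in WT and 9783 and 10845 in Sphk2 KO. The second, at 60806757 to 60807932, had 36.9 and 28.2 in WT against 26.4 and 58.2 in Sphk2 KO, with ranks of 7984 and 10624 against 7334 and 6759. In both regions the 2 Sphk2 KO libraries ranked higher than the 2 WT libraries. The WT replicates were 3625 and 2640 ranks apart, more than the difference of 2644.5 and 2257.5 ranks between genotype means. A region at the lower-coordinate end of the gene, 60803628 to 60803892, was called in WT replicate 1 alone (3.18).

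**Figure D3:**
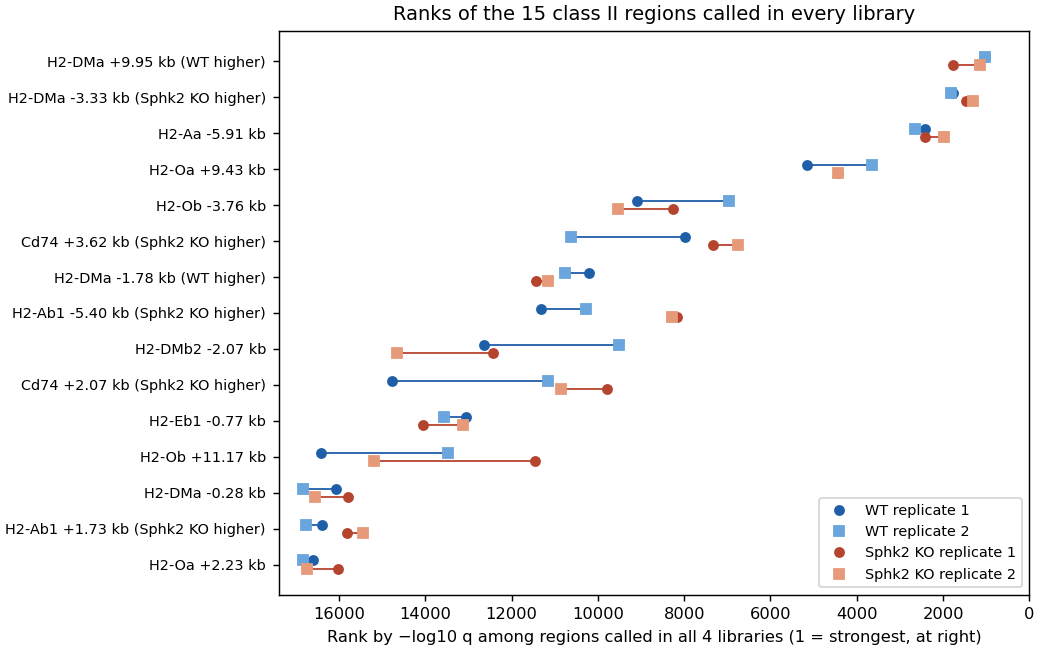
Ranks by −log10 q (horizontal axis, reversed so that the strongest is at the right) of the 15 regions called in every library, among the 16973 such regions of the series. Each row is a region named by a class II gene and the distance of its summit from the start or gene end, points are libraries and lines join the replicates of a genotype. Genotypes do not overlap at 7 regions, 5 of them higher in Sphk2 KO, and the lines are often as long as the distance between the genotypes.

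H2-DMa, the α chain of the peptide exchanger, carried the region with the highest −log10 q of all members in every library but Sphk2 KO replicate 1. It lies inside the RefSeq gene body at 34135308 to 34135871, 9.95 kb past the second of the 2 starts listed for H2-DMa. Whether H2-DMa also has an unlisted start nearer to this region was not tested. Its −log10 q was 136 and 147 in WT against 76.4 and 175 in Sphk2 KO, with a fold enrichment of 15.7 and 14.0 in WT against 13.0 and 15.3 in Sphk2 KO. Among shared regions it ranked 1029 and 1032 in WT against 1763 and 1148 in Sphk2 KO, so both WT libraries ranked it higher. Sphk2 KO replicate 1 stood furthest from the others.

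The RefSeq body of H2-DMa, 34119693 to 34139101, includes transcript models that overlap Brd2, a bromodomain gene, and 3 of the 27 regions lay in the overlap. The strongest of them, 34118905 to 34120026, is the region at the listed start of Brd2 and lies 3.33 kb from the nearest listed H2-DMa start. It had 111 and 120 in WT against 82.2 and 168 in Sphk2 KO, and it ranked higher in both Sphk2 KO libraries (1476 and 1299, against 1773 and 1814). The region at 34120478 to 34121599 had 25.8 and 27.6 in WT against 12.8 and 28.0 in Sphk2 KO, and it ranked higher in both WT libraries (10211 and 10755, against 11430 and 11149). The third, 34122353 to 34122650, overlapped 69 bases of the listed H2-DMa promoter window and was weak in every library (3.81 to 6.65). A pair of small regions 2.14 and 2.60 kb past the second start were each called in 1 WT library only (10.2 in WT replicate 1 and 1.73 in WT replicate 2).

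The β chain genes H2-DMb2 and H2-DMb1 are close paralogues, so reads may not be placed uniquely between them, and the sources used here do not give how such reads were filtered. H2-DMb2 lies on the plus strand, and 1 region, 34142617 to 34143606, covered the upstream end of its RefSeq body at 34143229 in all 4 libraries. The summit of this region lay 2.07 kb before the listed start. The region's values of 17.1 and 33.8 in WT against 10.8 and 13.8 in Sphk2 KO gave overlapping ranks (12630 and 9501, against 12432 and 14655). H2-DMb1 had no region in its body, although its window holds an X and Y box pair. The region at 34165173 to 34165533, which starts 4.94 kb beyond the gene, was absent only from the list of Sphk2 KO replicate 1 (4.94 and 8.21 in WT, 13.7 in Sphk2 KO replicate 2), a pattern of 7.19% of all regions.

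H2-Oa and H2-Ob, the inhibitor of H2-DM, showed weak start peaks and stronger flanking regions. The H2-Oa start region, 34092558 to 34093567, lay just past the start, with the summit 360 bp into the gene, where RefSeq also places BC051537. It was called in both WT libraries (5.38 and 10.3) and in neither Sphk2 KO library, at ranks 21481 of 31507 and 18011 of 31843. A second region in the gene, 34094317 to 34094966, was called in all 4 libraries at 4.35 and 3.68 in WT against 4.37 and 4.81 in Sphk2 KO. The region at 34101158 to 34102349, between H2-Oa and Brd2, had 58.1 and 84.3 in WT against 43.4 and 86.7 in Sphk2 KO. Its ranks were 5161 and 3649 in WT against 4429 and 4428 in Sphk2 KO, and the Sphk2 KO values lay inside the WT spread.

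At H2-Ob the strongest region, 34234752 to 34235449, lay 3.76 kb upstream of the start. It had 31.0 and 49.3 in WT against 22.4 and 36.8 in Sphk2 KO, with summits within 2 bp of each other and overlapping ranks. Within 1 kb of the start only WT replicate 2 had a peak, at the edge of that distance and near the threshold (1.88). Beyond the gene, the region at 34249845 to 34250511 was called in all libraries, at 5.34 and 17.1 in WT against 12.7 and 11.8 in Sphk2 KO, again with overlapping ranks. The region at 34248788 to 34249039 was called in all libraries but Sphk2 KO replicate 1, at 14.0 and 13.5 in WT and 13.5 in Sphk2 KO replicate 2.

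**Figure D4:**
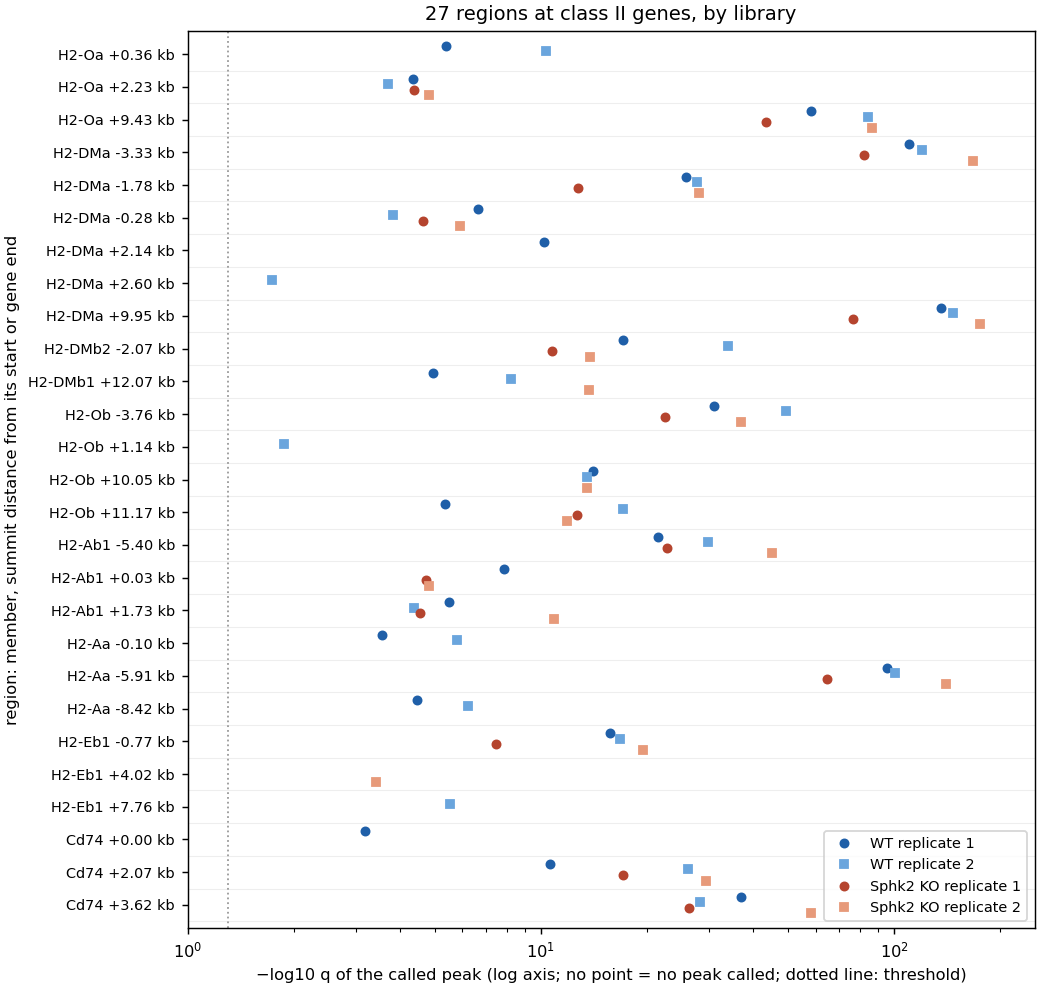
The authors' −log10 q (horizontal log axis) of all 27 regions at the class II genes, with 1 point per library and no point where no peak was called. Rows are named by gene and summit distance in kb from the start, or from a gene end for H2-Ab1 and Cd74, and the dotted line is the threshold. Points of Sphk2 KO replicate 1 lie lowest in most regions that all libraries share, and the points of the 3 regions called in both WT libraries but no Sphk2 KO library are all below 11.

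Over all members, 3 of 27 regions (11.1%) were called in both WT libraries but no Sphk2 KO library, compared with 5.43% of all regions. They were the start regions of H2-Oa and H2-Aa and the region between H2-Aa and H2-Eb1. No region was called in both Sphk2 KO libraries but no WT library (0 of 27, against 0.605% of all regions). The 3 WT-only calls were weak, with 1 left, at H2-Oa, when a −log10 q of at least 5 was required of every peak. None was left with equal lists of best peaks, when WT-only regions made 3.54% of all regions, and 1 region, that inside H2-Ab1, then became Sphk2 KO-only (1.95% of all regions). Among the 15 shared regions, 5 (33.3%) ranked higher in both Sphk2 KO libraries, against 22.2% of all shared regions, and 2 (13.3%) ranked higher in both WT libraries, against 21.2%. The regions higher in Sphk2 KO were 2 at H2-Ab1, 2 in Cd74 and 1 shared by H2-DMa and Brd2. These counts are small, and no genotype difference particular to the class II genes is read from them.

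Start peaks of monocyte and macrophage markers were more frequent in the WT libraries, and no other marker list held a gene called in both WT libraries but no Sphk2 KO library. These counts stand beside shares of 48.9% and 49.9% of protein-coding genes in WT, against 43.5% and 48.2% in Sphk2 KO. Of 11 monocyte and macrophage markers, 9 and 8 had a start peak in WT, against 4 and 5 in Sphk2 KO. Mertk, Irf8 and Fn1 were called in both WT libraries but no Sphk2 KO library, a pattern of 1.3% of protein-coding genes. Adgre1, Csf1r, Fcgr1 and Cx3cr1 were called in all 4 libraries, and Ccr2 and C1qa in none. Marker counts are given for the full peak lists only. Of 11 dendritic cell markers, 5 had one in each WT library, 1 in Sphk2 KO replicate 1 and 5 in Sphk2 KO replicate 2, and Zbtb46, Xcr1, Clec9a, Ccr7, Cd209a and Siglech had none in any. Of 9 B cell markers, 8 had none in any library, Ms4a1, Cd79a and Pax5 among them, and Pou2af1 had one in WT replicate 2. Of 11 T cell and EL4 markers, 3 and 4 had one in WT and 2 in each Sphk2 KO library. Cd5 had one in all 4 libraries (24.2 and 30.0 in WT against 24.0 and 37.5 in Sphk2 KO). Gata3 lacked one in Sphk2 KO replicate 1 alone, Lat lacked one in Sphk2 KO replicate 2 alone, and Bcl11b had one in WT replicate 2 alone. The other 7, Cd3e, Cd3d, Cd3g and Lck among them, had none. Neutrophil and granulocytic MDSC markers stood at 7 and 5 of 11 in WT and 6 and 8 in Sphk2 KO, and Ltf was called in both Sphk2 KO libraries (2.43 and 7.80) but no WT library. The part of cell makeup in the class II calls was not tested, and a peak list from a sorted population cannot tell fewer open cells from less open chromatin per cell.

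Of 6 genes that prepare antigen for class II molecules, 4 had a start peak in all 4 libraries, compared with 42.7% of protein-coding genes. They were Ctss, Ctsl and Ctsb, endosomal cathepsins, and Lgmn, an asparaginyl endopeptidase. The start of Ctss, whose product cleaves the invariant chain, had 12.3 and 14.7 in WT against 2.39 and 3.71 in Sphk2 KO. Ifi30, a thiol reductase that unfolds antigens, had a start peak in WT replicate 2 (6.44) and Sphk2 KO replicate 2 (2.64). Marchf1, a ubiquitin ligase that removes class II molecules from the surface, had one in WT replicate 1 (4.94) and in both Sphk2 KO libraries (2.63 and 14.3).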

How the data were processed

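Per the file headers, each library's peaks came from MACS 2.1.1.20160309 in paired-end mode with no control library and a q-value limit of 0.05. The submitters' processing notes name cutadapt, BWA, MACS2 and mm10. How multiply placed reads and the Tn5 offset were handled was not stated there. The deposited lists give, per the file headers, a fragment pileup (a signal not scaled to depth), the −log10 of each p-value and q-value, and a fold enrichment, a ratio to local background. These are the authors' scores and were used to describe and rank peaks, and no read counts were used.

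Overlapping peaks were merged (pandas 2.3.3, Python 3.11.15), each library keeping its best −log10 q per region. Merging and ranking were tested on simulated data. Genes and starts came from RefSeq tables for GRCm38.p6, the assembly of mm10. Starts were listed for 7 of 10 members, and for H2-Ab1, Cd74 and Ciita either gene end was used. All members are named, with values for start regions, best regions and regions private to a genotype. Members and lists were chosen with earlier results of these data known. From the lists of the interferon gamma route and of B cell markers, 1 gene each was left out and is not reported here. Alternatives were a −log10 q of at least 5, equal lists of best peaks, windows of 250 bp each side of summits, presence within 500 bp, other distances, ranking by fold enrichment and each library left out. Leaving out regions inside Brd2, gene ends for every gene, and ranks compared between same-numbered libraries were added after seeing the data.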

Additional observations from a re-analysis of the deposited data

How the results depend on the processing

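The labels give both genotypes the same replicate numbers without saying what they pair, and the rank deviations of same-numbered libraries were hardly correlated (Pearson r = 0.011 across the 16973 shared regions, which are not independent). With the replicate number as a block, added after seeing the data, 2 shared regions at the members ranked higher in WT in both pairs (28.7% of all shared regions did) and 7 in Sphk2 KO (30% of all), and the private calls are the same by construction. Of 88 values recomputed with all libraries, 69 stayed within 1.5 times the reported count and 19 did not. With equal lists of best peaks, regions called at the members numbered 15 in each WT library, WT-only regions 0 and Sphk2 KO-only regions 1, and members with a start peak 3 and 2 in WT. With a −log10 q of at least 5, WT-only regions numbered 1, and start peaks 3 in WT replicate 2 and 1 in Sphk2 KO replicate 1. With 0 kb around the gene body, 15 regions were called in each WT library and 12 in Sphk2 KO replicate 2. When a peak within 500 bp counted as present, WT-only regions numbered 5. Start peaks within 2 kb numbered 8 in WT replicate 2 and 5 in each Sphk2 KO library, and with either end of every gene 5 in each Sphk2 KO library. Without regions inside Brd2, 1 shared region ranked higher in both WT libraries.

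Leaving out a library lets 1 library stand for its genotype. WT-only regions then ranged from 3 to 6 (6 without WT replicate 1, 6 without WT replicate 2 and 5 without Sphk2 KO replicate 2), and Sphk2 KO-only regions from 0 to 1 (1 without WT replicate 1 and 1 without Sphk2 KO replicate 1). Shared regions ranked higher in WT ranged from 3 to 5 and those ranked higher in Sphk2 KO from 7 to 8. A rule that both libraries of a genotype must meet is easier to meet with 1 library, so these counts can rise by construction. Any further cause of the shifts was not tested. Peak calls limit all values: a region without a call was not detectable at this depth, and the Sphk2 KO libraries were the shallower.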

Other observations

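The class II stretch of chromosome 17 also holds class I antigen processing genes, which stood open in every library. Psmb9, an immunoproteasome subunit, and Tap1, a peptide transporter chain, share a start region with −log10 q values of 132 and 152 in WT against 87.9 and 143 in Sphk2 KO. Psmb8 had 39.9 and 51.5 in WT against 22.8 and 35.6 in Sphk2 KO, and Tap2 had 16.7 and 21.6 in WT against 12.9 and 31.9 in Sphk2 KO. Tapbp, the peptide loading factor tapasin, had 59.7 and 76.6 in WT against 28.8 and 62.8 in Sphk2 KO. All of these start values were higher than that of H2-Eb1 in the same library, the strongest region at a listed start among the class II members.

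At the far side of H2-Eb1, Btnl2, a butyrophilin-like gene, had start values of 18.3 and 34.6 in WT against 16.4 and 49.5 in Sphk2 KO. H2-Ea, listed by RefSeq as a transcribed pseudogene on this assembly, had a peak at a gene end in WT replicate 2 (12.3) and Sphk2 KO replicate 2 (7.28). Notch4 had none in any library.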
